A study of Homo sapiens with 4 samples.

Results

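Long noncoding RNAs that act in the nucleus or are followed in cancer were examined in RNA-seq data from WT and C/EBPβ enh-/- cells. The list held 10 genes chosen by name, namely MALAT1, NEAT1, PVT1, CYTOR, LUCAT1, MIR22HG, H19, MEG3, HOTAIR and CCAT1, and 9 of them were found by their gene symbol among the 57768 genes of the files. No identifier was matched to CCAT1, which was not analysed here. The cells carried the label HepG2, which is a long-established line from a human liver cancer. RNA was sequenced in 2 libraries from WT cells and 2 from C/EBPβ enh-/- cells (edited cells in what follows), in which CRISPR/Cas9 had removed both copies of an enhancer assigned to CEBPB, the gene of the transcription factor C/EBPβ. No treatment other than the genome editing was given in the labels, and whether the edited libraries came from 1 clone or from several, or the libraries of a genotype from separate cultures, was not stated, so p-values measure only the spread between these libraries. The measurement was FPKM, the number of fragments scaled to transcript length and library size, which allows levels of different genes to be set side by side.

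Long noncoding RNAs are transcribed and often spliced like messenger RNAs but are not known to encode a protein, and many work where they are made. MALAT1 collects at nuclear speckles, stores of splicing factors, and NEAT1 is the RNA scaffold of paraspeckles, nuclear bodies built on it by RNA-binding proteins. Others are known from their neighbourhoods, such as H19 and MEG3 from imprinted loci expressed from the maternal copy, PVT1 from the MYC locus, HOTAIR from the HOXC cluster and MIR22HG as the host of a microRNA.

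For CEBPB itself, WT libraries 1 and 2 gave 30.6 and 19.2 FPKM and the edited ones 12.4 and 11.8, a log2 fold change of -0.94 (standard error 0.27) that did not pass the threshold (adjusted p = 0.125, limma). With 1 library left out it ran from -1.27 (without WT library 2) to -0.62 (without WT library 1). The median log2 fold change over the 12491 genes tested was -0.14, and 62.6% of the genes were below 0, so a member near that value moved with the bulk of the genes. Total FPKM per library was between 484073 and 614111, and the spacing of low values put the depth at roughly 22000000 fragments in edited library 1 and 38800000 to 48000000 in the other 3 libraries. Of 20 liver markers, 19 were under an FPKM of 1 in all 4 libraries, including ALB, so nearly all defining markers of the labelled cell type were absent. The exception, GPC3, was at 0.000411 and 0.0292 FPKM in WT and at 0.763 and 2.12 in edited libraries. Of 5 epithelial markers, EPCAM and CDH1 were near 0 in every library, and KRT8 (log2 fold change -1.68) and KRT18 (-1.52) fell past the threshold (adjusted p = 0.0325 and 0.0243, limma). The summed epithelial markers were at 648 and 797 FPKM in the WT libraries and at 238 in both edited libraries. Of 7 fibroblast markers 3 were tested and 0 called (limma, 1 lower and 1 higher at an unadjusted p under 0.05), beside 1.46% of all tested genes called. These 3 were COL1A1 (15.5 and 11.4 FPKM in WT, 10.1 and 14.9 in edited libraries), COL3A1 (33.3 and 31.9, 45.8 and 55.7) and PDGFRB (4.15 and 5.59, 1.52 and 2.27). PDGFRB was the lower one (log2 fold change -1.02) and COL3A1 the higher one (0.62). The matched endothelial (4) and leukocyte (5) markers were all under an FPKM of 1. Whether these differences in marker levels had a part in any lncRNA result was not tested.

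H19 was the only listed lncRNA that passed the test, and its mean level in edited cells was 0.244 of that in WT cells. This call was lost after centring on the median (adjusted p = 0.0685, limma), in 6 other alternatives and with any 1 library left out, which left 0 members called. Of the 8 members with a mean FPKM of at least 1, which were the ones tested, 1 was lower (background 1.21% of all tested genes) and 0 were higher (background 0.248%) at an adjusted p under 0.05 from limma. At an unadjusted p under 0.05, 4 members were lower (background 16.9%) and 0 were higher (background 3.86%). This imbalance depended on the scaling. Centring gives the libraries equal medians over the tested genes, so it evens out the split by construction. At an adjusted p under 0.05, 151 genes were lower and 31 higher, and 68 and 31 after centring on the median. After this centring, 1263 genes were lower and 1142 higher at an unadjusted p under 0.05 by limma, in place of 2114 and 482, and of the members 2 were lower and 1 higher. The 4 lower members as first scaled were H19, LUCAT1, CYTOR and HOTAIR, and they were also the 4 members whose edited values both lay below both WT values, as was so for 37.5% of all tested genes. NEAT1 was the only member with both edited values above both WT values, as was so for 15.1% of tested genes, and the groups overlapped for MALAT1, PVT1 and MIR22HG. The tested members had a median log2 fold change of -0.36, with 4 below and 4 above 0. This median was 0.11 over the 5 members with a mean FPKM of at least 5, and -0.18 after centring.

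**Figure D1:**
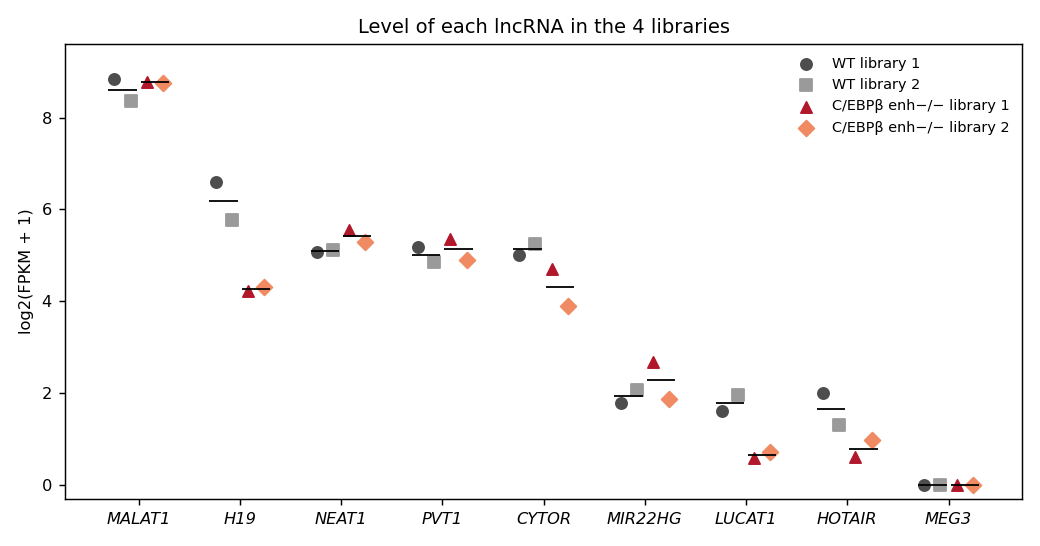
Level of each of the 9 members found, as log2(FPKM + 1), with 1 point per library in WT and C/EBPβ enh-/- cells and a bar at the mean of each genotype. MALAT1 stands highest in every library, and H19, LUCAT1, CYTOR and HOTAIR have both C/EBPβ enh-/- points below both WT points.

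MALAT1 and NEAT1 lie next to each other on chromosome 11 and are both made into nuclear RNAs (NEAT1 in its long form) with an unusual 3′ end, which is cut by RNase P after a genomically encoded A-rich tract that folds back on U-rich elements as a triple helix. The tracts are shown because they end these RNAs in place of an added poly(A) tail. In the GRCh37 sequence a run of at least 5 A followed by GCAAAA, with a U-rich element in the preceding bases, was found at 1 position in each gene, and the bases are shown on the RNA strand with both elements in capitals. The MALAT1 stretch is chr11:65273499-65273597, 1957 bases before the annotated end of the gene at the end of its tract, and the NEAT1 stretch is chr11:65212931-65213011, which ends exactly at the annotated gene end.
MALAT1: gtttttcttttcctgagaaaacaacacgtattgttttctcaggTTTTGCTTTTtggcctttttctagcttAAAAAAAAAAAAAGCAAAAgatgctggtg
NEAT1: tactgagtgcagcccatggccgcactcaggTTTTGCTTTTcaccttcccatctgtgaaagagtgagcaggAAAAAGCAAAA
The capitals before the tract are the same letters in both genes because that string was searched for. The tract itself is 19 bases long in MALAT1 and 11 in NEAT1.

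MALAT1 (ENSG00000251562.3, GRCh37 chr11:65265111-65275544, plus strand) was the most abundant member by far. WT libraries 1 and 2 held 458 and 328 FPKM, and edited libraries 1 and 2 held 436 and 432. The pair of edited values lay between the WT values and close together, and the WT libraries spread most. The means were 393 ± 92.1 (SD, n = 2) for WT and 434 ± 2.78 (SD, n = 2) for edited cells, with a log2 fold change of 0.16 whose 95% interval ran from -0.39 to 0.72 (adjusted p = 0.732, limma). Without WT library 2 the log2 fold change was -0.08. Among all genes annotated as lncRNA, MALAT1 ranked 6 in both WT libraries and 5 in both edited libraries.

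NEAT1 (ENSG00000245532.4, GRCh37 chr11:65190245-65213011, plus strand) was measured at a much lower level. WT libraries gave 32.9 and 33.6 FPKM, and edited libraries 1 and 2 gave 45.9 and 37.9. Here the WT libraries were nearly equal and both edited libraries were higher, library 1 more so. The log2 fold change was 0.32 with a 95% interval from -0.20 to 0.84 (adjusted p = 0.444, limma), and was 0.18 without edited library 1 and 0.45 without edited library 2. The ratio of MALAT1 to NEAT1 was 13.9 and 9.75 in WT and 9.49 and 11.4 in edited cells, with overlapping groups. NEAT1 has 9 annotated transcripts, the longest of 22743 bases, and 1 value was given for all of them. The level and the ratio therefore do not describe the long form alone. RNA selection was not given, and how it bore on RNAs without an added poly(A) tail was not tested.

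Genes of the proteins that share nuclear bodies with these RNAs had 0 calls, and with 1.46% of all tested genes called in either direction that count is no result about lists this short. Of 11 paraspeckle proteins, among them NONO, SFPQ and PSPC1, all were tested and 0 were called in either direction (limma, 0 at an unadjusted p under 0.05), and their log2 fold changes ran from -0.45 to 0.59 with a median of 0.01. Of 13 nuclear speckle proteins, among them SON, SRRM2 and SRSF1, 0 were called (limma, 0 at an unadjusted p under 0.05), with log2 fold changes from -0.31 to 0.53 and a median of -0.04. FRMD8, the nearest protein-coding gene on the NEAT1 side of the pair, had overlapping groups and a log2 fold change of 0.38 (adjusted p = 0.546, limma).

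**Figure D2:**
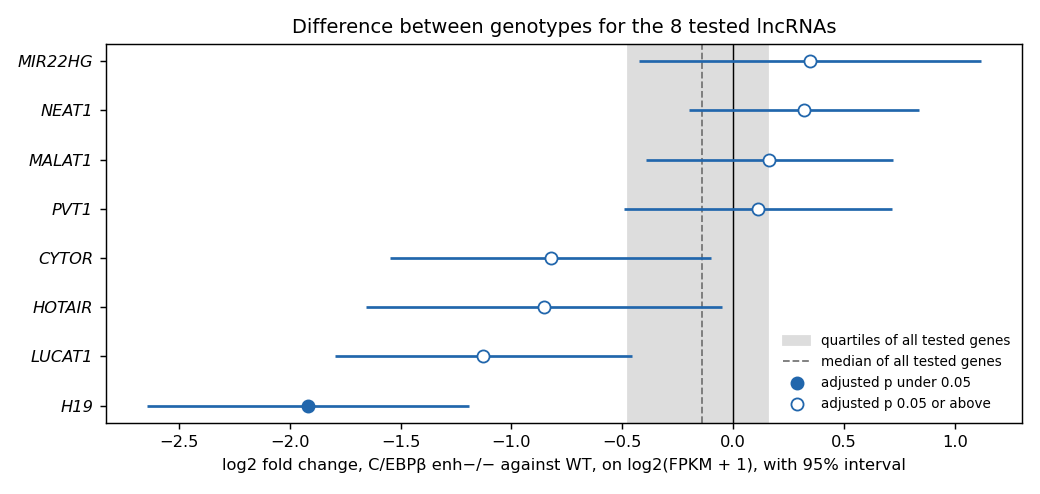
Log2 fold change of each tested member in C/EBPβ enh-/- against WT cells on the log2(FPKM + 1) scale, with its 95% interval from limma. The dashed line is the median of all tested genes (-0.14), and the interval of H19, from -2.64 to -1.19, lies farthest from it.

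H19 is a maternally expressed imprinted RNA that is abundant in fetal tissues, shares its control region with IGF2 and carries the microRNA miR-675 in its first exon. Its promoter and the mature microRNAs are shown because it is the member that passed the test. The promoter window is RefSeq GRCh38.p14 chr11:2001217-2001516, minus strand, from 250 bases before to 50 after the start, and the microRNAs are given from RefSeq with the seed, bases 2 to 8, in capitals.
H19 promoter: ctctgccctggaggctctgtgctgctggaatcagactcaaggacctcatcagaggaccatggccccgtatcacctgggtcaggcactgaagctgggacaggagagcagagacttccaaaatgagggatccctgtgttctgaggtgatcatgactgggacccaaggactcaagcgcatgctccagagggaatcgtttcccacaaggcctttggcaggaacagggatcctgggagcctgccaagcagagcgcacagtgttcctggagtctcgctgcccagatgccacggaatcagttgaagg
hsa-miR-675-5p: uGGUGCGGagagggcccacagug
hsa-miR-675-3p: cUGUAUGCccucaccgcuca
Within this window, none of the 4 motifs searched on both strands was found, namely the C/EBP core TTGCNNAA, the AP-1 motif TGANTCA, the antioxidant response element core TGACNNNGC and the hypoxia response element core ACGTG. Across 34796 RefSeq promoter windows these letters occur in 10.5%, 7.73%, 13.3% and 21.4%, and absence from a window of this length says nothing about binding elsewhere.

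H19 (ENSG00000130600.11, GRCh37 chr11:2016396-2025782, minus strand) stood at 96.2 and 53.6 FPKM in WT libraries 1 and 2, and at 17.7 and 18.8 in edited libraries 1 and 2. Both edited values were far below both WT values and close to each other, while the spread was wider between the WT libraries. The mean fell from 74.9 ± 30.1 (SD, n = 2) to 18.3 ± 0.792 (SD, n = 2), a ratio of 0.244. The log2 fold change was -1.92 (standard error 0.30, 95% interval -2.64 to -1.19, adjusted p = 0.0395, limma), or -1.78 once the median over all genes was subtracted. Its rank among lncRNA genes went from 18 and 24 in the WT libraries to 52 and 53 in the edited libraries.

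The direction of H19 was the same in every alternative run, and its call was not. A block for the replicate number gave an adjusted p of 0.0535 with limma, rescaling each library to the same total gave 0.0651, and centring on the median gave 0.0685. Correcting for GC content and length gave 0.0958, and leaving out each of the 4 libraries in turn gave adjusted p from 0.0974 to 0.226, with log2 fold changes from -2.33 to -1.50. In all, 7 of 11 alternatives other than leaving out a library lost the call, with adjusted p from 0.0202 to 0.571 and log2 fold changes from -1.97 to -1.68 over the 11. In bulk RNA such as this, fewer cells with a transcript and less of it per cell cannot be told apart.

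**Figure D3:**
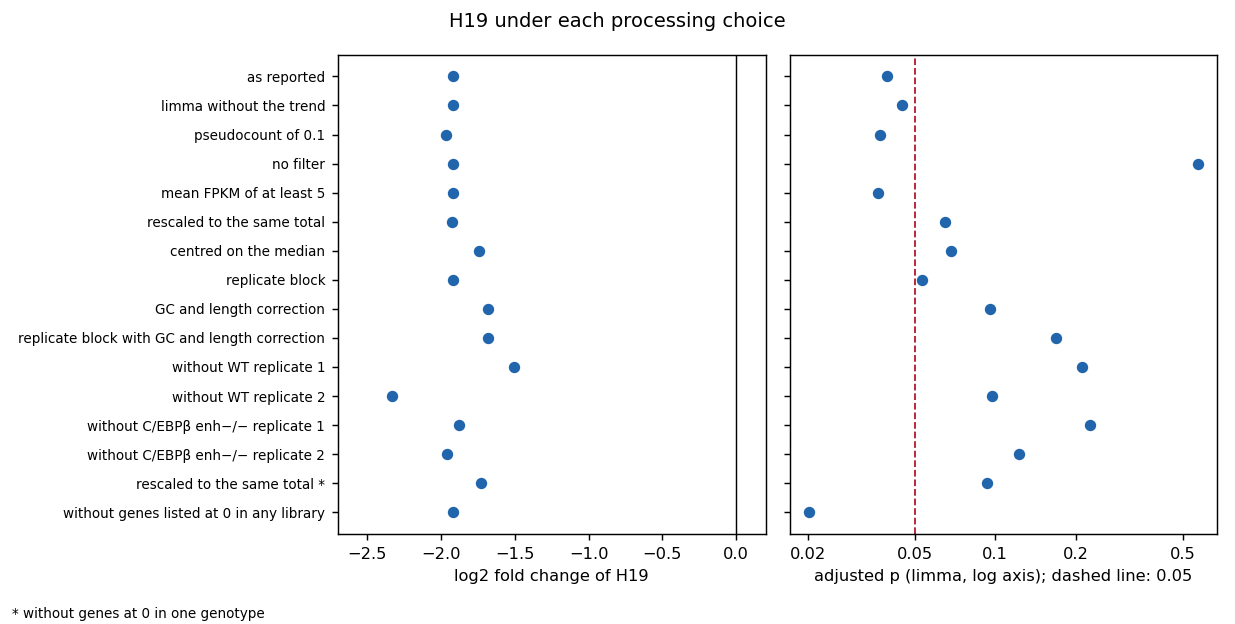
H19 under each alternative, with the log2 fold change in C/EBPβ enh-/- against WT cells at left and the adjusted p from limma on a log axis at right, where the line marks 0.05. All fold changes lie between -2.33 and -1.50, and the adjusted p falls on both sides of the line.

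Of the neighbours of H19, MRPL23 was tested and IGF2 was too low to test. MRPL23, a mitochondrial ribosomal protein gene 10.6 kb away, had an FPKM of 55.6 and 64.8 in WT and of 46.8 and 76.7 in edited libraries, and its groups overlapped (log2 fold change 0.00 with a 95% interval from -0.68 to 0.67, adjusted p = 0.999, limma). IGF2, the growth factor gene of the same imprinted domain, was at or near 0 in all 4 libraries, with a highest FPKM of 0.00958. MEG3 (ENSG00000214548.10, GRCh37 chr14:101245747-101327368, plus strand), an RNA of the DLK1 imprinted domain described as a growth suppressor, had no FPKM above 0 in WT cells and reached 0.000512 and 0.000232 in edited cells, levels at which no difference was detectable. Its neighbours DLK1 and RTL1 were also at or near 0, with a highest FPKM of 0.00607 for DLK1. Of 9 imprinted partner genes, 6 were under an FPKM of 1 in all libraries, and 0 of the 3 tested were called (limma, 0 at an unadjusted p under 0.05). With 1.46% of all tested genes called in either direction, 0 of 3 is no result about these genes.

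CYTOR, a largely cytoplasmic RNA known from several carcinomas, and LUCAT1, an RNA induced by oxidative and other stress, are printed with their promoters because these were the windows with AP-1 matches. Both are RefSeq GRCh38.p14 windows from 250 bases before to 50 after the start, CYTOR at chr2:87455177-87455476 on the plus strand and LUCAT1 at chr5:91314353-91314652 on the minus strand, with matches in capitals.
CYTOR promoter: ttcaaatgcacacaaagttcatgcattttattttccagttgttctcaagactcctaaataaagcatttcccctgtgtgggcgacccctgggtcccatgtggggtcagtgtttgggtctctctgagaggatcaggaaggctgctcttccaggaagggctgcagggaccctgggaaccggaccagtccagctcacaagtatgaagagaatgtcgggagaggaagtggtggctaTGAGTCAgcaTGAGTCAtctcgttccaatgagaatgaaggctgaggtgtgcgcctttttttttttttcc
LUCAT1 promoter: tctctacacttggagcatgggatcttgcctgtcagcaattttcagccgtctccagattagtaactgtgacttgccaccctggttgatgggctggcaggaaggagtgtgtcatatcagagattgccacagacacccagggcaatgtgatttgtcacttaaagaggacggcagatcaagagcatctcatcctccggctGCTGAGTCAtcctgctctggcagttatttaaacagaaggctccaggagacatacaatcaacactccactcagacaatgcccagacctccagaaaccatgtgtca
The CYTOR window held 2 AP-1 matches, which begin 19 and 9 bases before the start. In the LUCAT1 window the AP-1 match, 52 bases before the start, overlapped an antioxidant response element core on the strand opposite to LUCAT1. Of the 6 members with a window, AP-1 letters occurred in 2, the antioxidant response element core in 2 (LUCAT1 and MALAT1, 3 matches in all), the hypoxia response element core in 1 (MIR22HG) and the C/EBP core in 0, beside the shares of all windows given above. A match is a run of letters and not evidence of a bound site. Windows for the other 4 members were not used here.

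CYTOR (ENSG00000222041.6, GRCh37 chr2:87754300-87936259, plus strand) was measured at 31.4 and 36.8 FPKM in WT cells, and at 25.1 and 13.99 in edited libraries 1 and 2. Both edited values lay below both WT values, and the edited libraries differed from each other more than the WT libraries did. The log2 fold change was -0.82 (standard error 0.30, 95% interval -1.55 to -0.10), with an unadjusted p of 0.0312 and an adjusted p of 0.192 from limma. With 1 library left out it ran from -1.22 (without edited library 1) to -0.42 (without edited library 2).

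A near-identical copy limits what this value means. MIR4435-2HG, a related lncRNA gene elsewhere on chromosome 2, matches 76.2% of the exon bases of CYTOR in alignments of at least 95% identity (mean 99.1%), so fragments could be split between the 2 genes and each value is uncertain. MIR4435-2HG had an FPKM of 38.1 and 45.8 in WT and of 25.01 and 16.7 in edited libraries, with a log2 fold change of -0.99 (adjusted p = 0.111, limma). The sum of both genes was 69.5 and 82.5 in WT and 50.1 and 30.7 in edited libraries; this sum also depends on how fragments were shared out, since the genes differ in exon length. Both genes hold the same mature microRNA, shown from RefSeq with its seed in capitals.
hsa-miR-4435: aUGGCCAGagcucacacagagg

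LUCAT1 (ENSG00000248323.1, GRCh37 chr5:90350651-90610364, minus strand) was a low-level RNA, at 2.05 and 2.88 FPKM in WT cells and at 0.5003 and 0.654 in edited libraries 1 and 2. Both edited values were well below both WT values, and its mean of 0.577 ± 0.108 (SD, n = 2) against 2.47 ± 0.592 (SD, n = 2) was a ratio of 0.234, about the size of that of H19. The log2 fold change was -1.13 (standard error 0.28, 95% interval -1.80 to -0.46, adjusted p = 0.0979, limma), and the pseudocount of 1 understates the change of a gene at this level. By the approximate depths, these values rest on roughly 244 and 385 fragments in WT and 33.8 and 96.4 in edited libraries. The protein-coding gene ADGRV1 overlaps LUCAT1 on the opposite strand, where reads cannot be told apart, at FPKM values from 0.0292 to 0.1004. Of the nearest protein-coding genes that do not overlap it, ARRDC3, at 54.1 kb, gave a fold change on the log2 scale of 0.58 (adjusted p = 0.346, limma), and LYSMD3, on the other side at 525.2 kb, one of 0.33 (adjusted p = 0.441, limma). ARRDC3 was at 9.34 and 11.8 FPKM in WT and at 22.2 and 11.9 in edited libraries. Its fold change was 0.16 without edited library 1 and 1.01 without edited library 2.

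MIR22HG is the host gene of miR-22, a microRNA present in most tissues and responsive to stress. The mature sequences are those from RefSeq, with seeds in capitals, and the files measured the host transcript, not these short RNAs.
hsa-miR-22-3p: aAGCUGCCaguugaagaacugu
hsa-miR-22-5p: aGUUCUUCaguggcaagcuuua
MIR22HG (ENSG00000186594.8, GRCh37 chr17:1614741-1620468, minus strand) gave 2.46 and 3.22 FPKM in WT cells, and 5.42 and 2.67 in edited libraries 1 and 2. Only edited library 1 was above both WT values, so the groups overlapped, and the log2 fold change was 0.35 (95% interval -0.43 to 1.12, adjusted p = 0.584, limma). Without edited library 1 it was -0.06. WDR81 overlaps MIR22HG on the opposite strand at FPKM values from 3.37 to 5.54, and since the strandedness of the libraries was not given, reads of the overlap cannot be told apart.

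HOTAIR (ENSG00000228630.1, GRCh37 chr12:54356092-54368740, minus strand) is transcribed from the HOXC cluster, antisense to HOX genes, and has been reported to bind the PRC2 and LSD1 chromatin complexes. WT libraries 1 and 2 gave 2.99 and 1.46 FPKM, and the edited ones 0.528 and 0.964. The edited values both lay below the WT values, and the WT libraries differed by more than the edited libraries did. The log2 fold change was -0.86 (standard error 0.34, 95% interval -1.66 to -0.05), with an unadjusted p of 0.0400 and an adjusted p of 0.218 from limma, on roughly 281, 154, 28.1 and 112 fragments in the same order. With 1 library left out the fold change ran from -1.20 (without WT library 2) to -0.51 (without WT library 1).

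The genes around HOTAIR gave a mixed picture. HOXC11, which overlaps it on the opposite strand so that reads cannot be assigned by strand here, had an FPKM of 3.98 and 3.30 in WT and of 2.36 and 2.03 in edited libraries (log2 fold change -0.54, adjusted p = 0.268, limma). HOXC10, 10.1 kb away, overlapped between genotypes, with values from 7.01 to 9.66 and a log2 fold change of -0.08 (adjusted p = 0.877, limma). All 7 genes of proteins reported to bind HOTAIR were tested and 0 were called (limma, 0 at an unadjusted p under 0.05), with log2 fold changes from -0.32 to 0.24 and a median of -0.20. With 1.46% of all tested genes called in either direction, that count is no result about a list this short. Both edited values lay below both WT values for 4 of them (37.5% of all tested genes) and above for 0 (15.1%).

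PVT1 (ENSG00000249859.3, GRCh37 chr8:128806772-129199347, plus strand) lies downstream of MYC, the oncogenic transcription factor gene, and is often gained with it in cancers. WT libraries 1 and 2 gave 35.1 and 27.98 FPKM, and the edited ones 39.9 and 28.9. The groups overlapped, and the log2 fold change was 0.11 with a 95% interval from -0.49 to 0.72 (adjusted p = 0.837, limma). Without WT library 2 it was -0.05, and without edited library 1 it was -0.11. MYC, 51.6 kb away, had an FPKM of 109 and 108 in WT and of 46.1 and 62.8 in edited libraries, a log2 fold change of -1.0 that did not pass the threshold (adjusted p = 0.0878, limma). The ratio of PVT1 to MYC was therefore 0.322 and 0.258 in WT and 0.865 and 0.460 in edited libraries, without overlap, where an exact two-sided permutation of 2 against 2 libraries can give no p below 0.333.

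**Figure D4:**
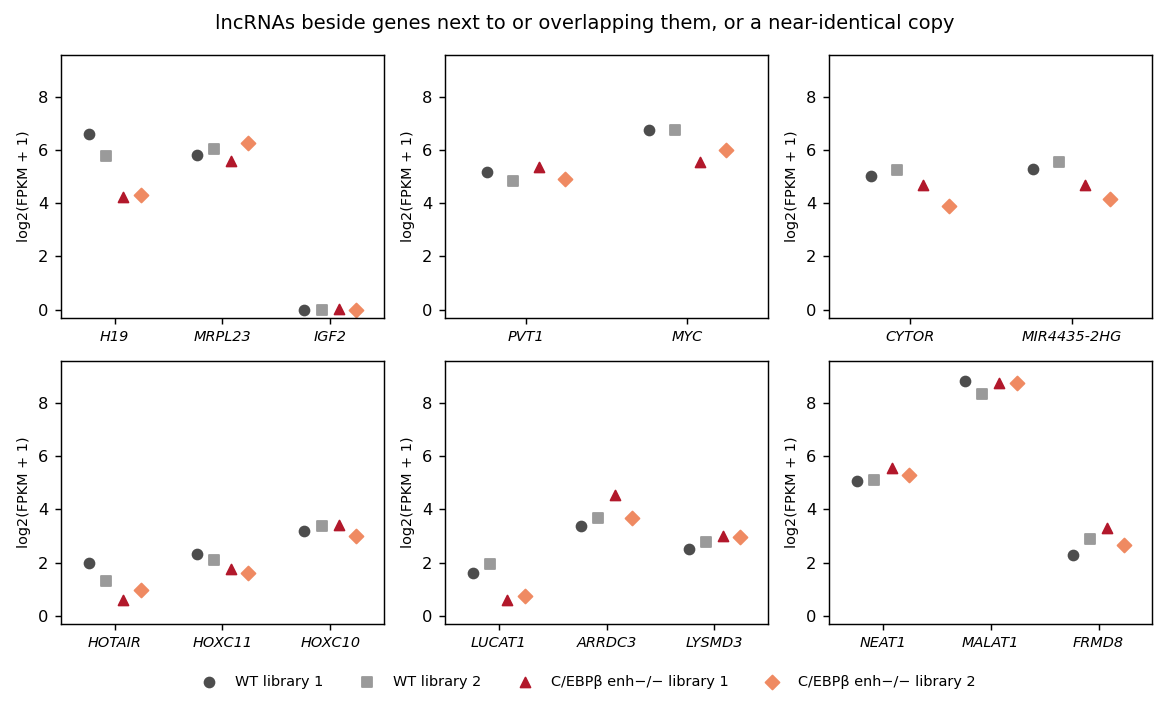
Level, as log2(FPKM + 1), of 7 members beside genes that lie next to them, overlap them or are a near-identical copy, with 1 point per library in WT and C/EBPβ enh-/- cells. H19 is lower in both C/EBPβ enh-/- libraries while MRPL23 overlaps and IGF2 is near 0, and MYC but not PVT1 has both C/EBPβ enh-/- points below both WT points.

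Summed over the members found, FPKM was 661 and 487 in WT and 571 and 536 in edited libraries, a log2 difference of -0.04 with overlapping groups, whose sign turned after centring on the median (0.14), after rescaling without the genes at 0 in 1 genotype (0.15) and without WT library 1 (0.18) or edited library 2 (0.01), and which was -0.26 without WT library 2. MALAT1 made up between 67.2% and 80.6% of this sum. Without it the sum was 203 and 160 in WT and 135 and 104 in edited libraries, and the groups did not overlap. Without H19 as well it was 107 and 106 in WT and 117 and 85.0 in edited libraries, and they did.

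Other well-known lncRNAs give a scale for these values. Of 30 listed, 27 were matched and 19 tested, and 0 were called (limma, 1 lower at an unadjusted p under 0.05, and 0 higher). Over all tested genes 1.46% were called, and 16.9% were lower and 3.86% higher at an unadjusted p under 0.05 by limma. The 0 calls are therefore no result about a list this short. The log2 fold changes of these 19 genes ran from -0.99 to 0.67 with a median of -0.05. Among all 812 tested lncRNA genes, 5 were lower and 3 higher past the threshold (1.21% and 0.248% of all tested genes), with a median log2 fold change of -0.09. Besides H19, those called with a mean FPKM of at least 5 were FRGCA and ENSG00000259001. FRGCA was at 20.1 and 10.6 in WT and 0.413 and 0.365 in edited libraries (log2 fold change -3.49, adjusted p = 0.00712, limma). Its adjusted p was 0.0518 by limma with the block and the GC and length correction. With 1 library left out its fold change ran from -3.92 to -3.06. For ENSG00000259001 the WT libraries list 0, and the edited ones list 93041 and 52768 of a total FPKM of 614111 and 484073. Rescaling without this entry and the other genes at 0 in 1 genotype gave a median of 0.0244 for all tested genes. H19 was then at -1.73. Whether this entry had a part in other values was not tested.

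**Figure D5:**
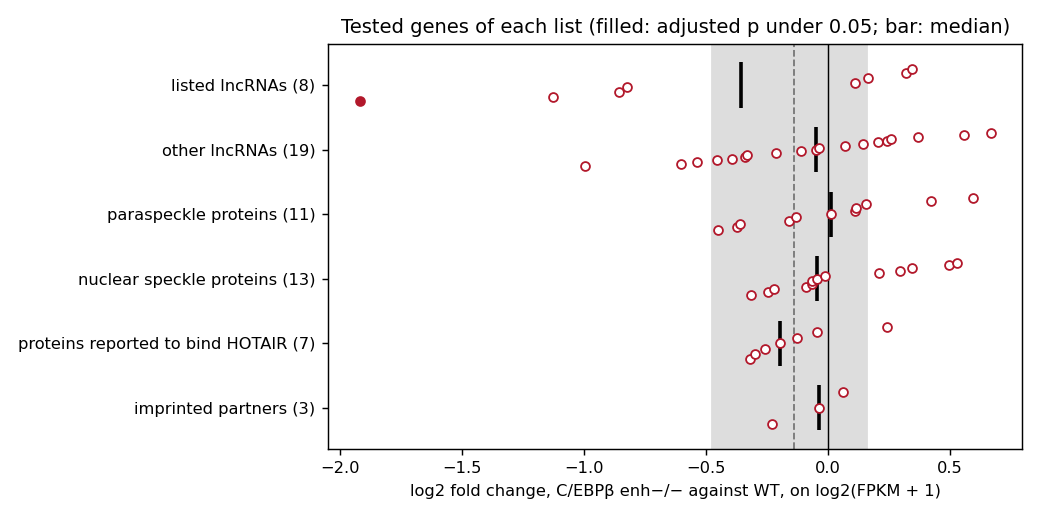
Log2 fold change in C/EBPβ enh-/- against WT cells of every tested gene of each list, with 1 point per gene and the median of each list as a bar, beside the members. The shaded band is the range between the quartiles of all tested genes, from -0.47 to 0.16, and H19 (-1.92) is the lowest member.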

How the data were processed

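RNA-seq libraries of HepG2-labelled cells were used, 2 of WT and 2 of C/EBPβ enh-/- genotype, with genotype and replicate number from the sample titles. All 4 libraries carry the same flow-cell lane, 3, in their labels. The authors deposited 1 FPKM value per gene and library. The submitters' processing notes name hg19, TopHat2 2.0.13, Cufflinks and edgeR without saying which gave the values, and RNA selection and strandedness are not given in the sources used here. The extraction text in the labels of these libraries describes isolating chromatin with an antibody before it names an RNA-seq library, so which RNA fraction was sequenced is unclear from it. FPKM depends on the other genes of a library, and no counts were recovered, since only 36.6% to 42.1% of low values came within 0.1 of whole fragment numbers.

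Of 57815 entries per file, 47 were chromosome Y copies of pseudoautosomal genes and were dropped, and 55535 of the other 57768 identifiers matched a symbol in GENCODE release 44 lifted to GRCh37. The identifiers carry older version numbers, so the FPKM values rest on other gene models than the coordinates, exons and distances given. Values were transformed as log2(FPKM + 1), which understates the change of low genes, and 12491 genes reached the mean FPKM of 1 set for testing. Genotypes were compared by limma (version 3.58.1, R 4.3.3, lmFit and eBayes with a trend), two-sided, with Benjamini-Hochberg adjustment over all tested genes and a threshold of 0.05. Errors are SDs, and precision is limited by n = 2. The fit had no replicate block, and same-numbered libraries did not deviate together (r = 0.01). It was tested on simulated data.

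The members, the gene lists and the neighbours were chosen with earlier results of these data known. Values are given for all members, CEBPB, genes of the lists past the threshold, partner or copy genes, the nearest tested protein-coding neighbours, genes overlapping a member, and called lncRNAs whose mean FPKM was 5 or more. A gene that this rule names is not reported here. Genes overlapping a member, and the near-identical part of CYTOR, found with blastn 2.17.0, were looked for in GRCh37. Promoters and microRNAs came from RefSeq (GRCh38.p14), with windows for 6 of the 10 members. Besides leaving out each library, 9 alternatives were run, which changed the filter (none, or a mean FPKM of 5), the pseudocount (0.1), the trend (none), the scaling (equal totals, or centred medians), the block (added) or the correction for GC and length (added, alone or together with the block). Another 2, chosen after seeing the data, rescaled without the 4 genes at 0 in 1 genotype and 10 or more in both libraries of the other, or dropped genes listed at 0 anywhere. Python 3.11.15 was used for tables and plots (pandas 2.3.3, numpy 2.4.6, scipy 1.17.1, matplotlib 3.10.9).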

Additional observations from a re-analysis of the deposited data

How the results depend on the processing

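The direction of the tested members held in all 11 settings other than leaving out a library wherever a value was given, and among members H19 alone changed its call. The count of genes lower in C/EBPβ enh-/- cells by limma (151) was 61 after rescaling to the same total, 68 after centring on the median, 63 after a GC and length correction, 43 after rescaling without the 4 genes at 0 in 1 genotype, 324 when genes listed at 0 anywhere were left out, and 9 to 22 when 1 library was left out. The count of genes higher (31) was 20 at a mean FPKM of at least 5, 47 without genes listed at 0, and 3 to 20 with 1 library left out. With no filter, 57768 genes were tested and limma called 0 lower and 0 higher, against 2657 and 1107 when p was left unadjusted at 0.05. With the replicate block 93 were lower, and with the block and the GC and length correction 22 were lower and 8 higher. The labels give both genotypes the numbers 1 and 2, but nothing else pairs the libraries. The number of members called lower was 0 under no filter, rescaling, centring, the block, both GC and length corrections, rescaling without genes at 0 and each left-out library, where 2 or 3 members were lower at an unadjusted p under 0.05 by limma, and 0 or 1 higher, beside 1168 to 2657 lower and 241 to 1190 higher over all genes tested.

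The median of all tested genes (-0.14) was 0.0 without a filter, 0.0345 after centring, 0.0344 in both GC and length fits, and 0.0244 after rescaling without genes at 0, and ran from -0.19 to -0.10 with 1 library left out. The median of the members (-0.36) was 0.11 at a mean FPKM of at least 5, where 5 members were tested, -0.18 after centring, -0.15 in both GC and length fits and -0.17 after rescaling without genes at 0, and ran from -0.40 to -0.13 with 1 library left out. With 1 library left out, MALAT1 ran from -0.0773 to 0.40, PVT1 from -0.11 to 0.34 and MIR22HG from -0.0564 to 0.75. After centring, MALAT1, NEAT1, PVT1 and MIR22HG were at 0.34, 0.49, 0.29 and 0.52. In both GC and length fits they were at 0.33, 0.57, 0.32 and 0.53, and after rescaling without genes at 0 at 0.35, 0.51, 0.30 and 0.49. The members below 0 were smaller in size in these fits than as first scaled. MRPL23, HOXC10 and WDR81, all near 0, changed sign. After centring they were at 0.17, 0.0909 and 0.17, in both GC and length fits at 0.22, 0.16 and 0.26, and after rescaling without genes at 0 at 0.19, 0.0862 and 0.15. With 1 library left out they ran from -0.35 to 0.35, -0.29 to 0.12 and -0.30 to 0.29. Without a filter and in fits with fewer samples the number of genes or samples differs by construction. Centring and the GC and length corrections take out shifts between whole libraries by construction. For the other settings the cause was not tested. Leaving out a library leaves a genotype with 1 library, which is then assumed to vary like the other genotype. By the approximate depths, LUCAT1 and HOTAIR rested on the fewest fragments of the tested members in the edited libraries. Whether depth had a part in their results was not tested. MEG3 was below what these libraries could compare.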
